A study of Mus musculus with 8 samples.

Results

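The genes described here are 10 interferon-inducible GTPases of mouse, 4 guanylate-binding proteins (GBPs: Gbp2, Gbp3, Gbp5 and Gbp7) and 6 immunity-related GTPases (IRGs: Irgm1, Irgm2, Igtp, Iigp1, Ifi47 and Tgtp1). They are a part of these families, chosen by name and with earlier results of these data known. A further 7 GBP and 12 IRG genes are described below. The 10 members were found in the deposited count table by their Ensembl identifiers, among 52636 genes. RNA was sequenced from microglia, the resident macrophages of the brain, of wild-type C57BL/6 mice. The methods of the study describe cells shaken off mixed glial cultures of neonatal brains and kept in serum with recombinant CSF-1, the growth factor on which microglia depend, and both groups share this. The vehicle group and the group given 5 µg/ml lipopolysaccharide (LPS, a cell wall component of Gram-negative bacteria that is sensed by Toll-like receptor 4) each held 4 libraries, labelled as biological replicates 1 to 4, and treatment lasted 24 h. The vehicle is not named, and these are cultured cells of young animals and not microglia in tissue.

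GBPs and IRGs are GTPases of cell-autonomous defence: they assemble on the membranes of vacuoles that hold bacteria or parasites, and GBPs also coat bacteria in the cytosol and promote inflammasome activation. Their genes are induced by interferons through STAT and IRF transcription factors, which bind GAS and ISRE elements near the start of the genes. Among the IRGs, Irgm1, Irgm2 and Igtp (also known as Irgm3) are regulators that sit on the cell's own membranes and hold the effectors Iigp1 (Irga6), Tgtp1 (Irgb6) and Ifi47 (Irgd) inactive there. In macrophages and microglia, LPS sensed at the surface can itself lead to interferon release.

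The members lie in clusters of relatives. In GRCm38 coordinates with the GENCODE vM21 annotation, Gbp5 (chr3:142493978-142522344), Gbp7 (chr3:142530342-142550149), Gbp3 (chr3:142560026-142573209) and Gbp2 (chr3:142620602-142638008) follow each other on the plus strand of chromosome 3. On chromosome 11, Irgm1 (chr11:48861968-48871683) and Tgtp1 (chr11:48985327-48994172) lie on the minus strand and Ifi47 (chr11:49076587-49096974) on the plus strand, while Igtp (chr11:58199556-58207591) and Irgm2 (chr11:58199618-58222782) overlap on the plus strand of a separate cluster. Iigp1 lies apart from these clusters. All 10 are annotated as protein coding.

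The stretches before the start sites of 9 members are shown because 8 of them hold interferon motifs that the families share and Ifi47 holds none (RefSeq windows on GRCm38, 5′ to 3′, the 120 bases up to the start, and 250 for Gbp5). Capitals mark matches to the ISRE core, which is GAAA, any 2 bases and GAAA (TTTC, any 2 bases and TTTC when read from the other strand), or to the GAS core TTCNNNGAA, which has the same letters on both strands.
Gbp5, chr3:142496684-142496933, plus strand: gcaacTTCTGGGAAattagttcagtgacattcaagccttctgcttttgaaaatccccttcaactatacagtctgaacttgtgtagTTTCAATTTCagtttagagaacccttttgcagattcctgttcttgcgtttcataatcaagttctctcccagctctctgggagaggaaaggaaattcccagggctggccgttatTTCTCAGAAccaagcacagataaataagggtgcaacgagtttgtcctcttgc
Gbp2, chr3:142620543-142620662, plus strand: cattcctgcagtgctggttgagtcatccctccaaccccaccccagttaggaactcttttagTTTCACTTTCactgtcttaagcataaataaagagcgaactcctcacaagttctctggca
Gbp3, chr3:142559924-142560043, plus strand: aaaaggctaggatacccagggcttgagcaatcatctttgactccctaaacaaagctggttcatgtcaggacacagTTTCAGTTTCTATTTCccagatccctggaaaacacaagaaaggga
Gbp7, chr3:142530216-142530335, plus strand: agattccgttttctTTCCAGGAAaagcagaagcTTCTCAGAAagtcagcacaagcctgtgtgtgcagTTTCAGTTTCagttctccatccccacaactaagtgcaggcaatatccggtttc
Irgm1, chr11:48871421-48871540, minus strand: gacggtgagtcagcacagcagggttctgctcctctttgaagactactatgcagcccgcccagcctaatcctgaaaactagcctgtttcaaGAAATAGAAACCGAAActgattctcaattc
Irgm2, chr11:58214857-58214976, plus strand: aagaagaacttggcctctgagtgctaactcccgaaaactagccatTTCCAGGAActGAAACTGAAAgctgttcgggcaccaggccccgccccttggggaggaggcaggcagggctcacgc
Igtp, chr11:58199436-58199555, plus strand: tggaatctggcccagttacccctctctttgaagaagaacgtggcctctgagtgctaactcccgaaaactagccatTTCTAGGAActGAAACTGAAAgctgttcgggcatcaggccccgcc
Tgtp1, chr11:48992247-48992366, minus strand: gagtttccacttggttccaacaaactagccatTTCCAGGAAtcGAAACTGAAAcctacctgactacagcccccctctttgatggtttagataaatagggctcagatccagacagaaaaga
Ifi47, chr11:49076467-49076586, plus strand: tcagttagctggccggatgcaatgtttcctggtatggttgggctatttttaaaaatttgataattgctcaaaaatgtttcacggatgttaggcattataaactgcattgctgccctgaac

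In windows from 250 bases before to 50 bases after the start, 8 of the 9 members held an ISRE match, against 3.44% of all 32851 windows of that length, and 5 of 9 held a GAS match, against 8.3%. Of the 8 further GBP and IRG genes with a window, 5 held an ISRE match and 3 a GAS match. Gbp5, Gbp7, Irgm2, Igtp and Tgtp1 held both, as did 0.454% of all windows. In Gbp3 and Irgm1 a pair of overlapping ISRE matches formed 1 run, 45 bases before the start in Gbp3 and 30 bases before it in Irgm1. No match to either core lay in the window of Ifi47, which says only that these letters are not in it. A window for Iigp1 was not used here, and a further Gbp3 window, at another start, held no match.

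The sequences of Irgm2, Igtp and Tgtp1 showed the motifs joined in 1 order: a GAS match, 2 further bases and an ISRE match, read along the strand of the gene. This joined form, searched on both strands, which was looked for after these sequences had been read, occurred in 5 of the 32851 windows, or 0.0152%. All 5 belonged to IRG genes of chromosome 11, the members Irgm2, Igtp and Tgtp1 and their relatives Tgtp2 and Gm12185. Set in register at the joined motif, the windows of Irgm2 and Igtp had 68.1% identical bases over 270 positions, with 1 identical run of 61 bases, and those of Tgtp2 and Gm12185 had 96.6%. Between Tgtp1 and Irgm2 the identity was 31%, with a longest identical run of 20 bases. Related windows are not independent observations.

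Expression was measured in CPM, the reads assigned to a gene per fixed number of reads in the library, after the edgeR scaling called TMM, which aligns libraries on the bulk of genes. Library totals ranged from 20071921 to 30604447 counts. All 10 microglia markers checked were detected, among them Tyrobp at 900.3 CPM in vehicle and 431 CPM after LPS. Their summed level lay between 10370 and 12520 CPM in vehicle and between 2269 and 2627 CPM after LPS, and 8 of 10 fell. P2ry12 and Tmem119, which mark resting microglia in tissue, stood at 33.8 and 9.40 CPM in vehicle. Genes of T and NK cells, the main makers of interferon gamma, had at most 2 counts in any library, and Cd3e, Cd3g, Cd3d, Trac, Ncr1 and Nkg7 had none in all 8. The summed level of 10 astrocyte markers was 21.1 to 55.1 CPM in vehicle and 44.4 to 128 CPM after LPS, where Gja1 rose, from 0.87 to 48.6 CPM on average, and Aqp4 (log2 change -3.34), Gfap (-2.41) and Aldh1l1 (-1.60) fell. Aqp4 and Gfap, with as few as 0 and 1 counts in a library after LPS, passed the low count filter only through the vehicle group. Gjb6 had no count in any library. The summed level of 10 endothelial markers was 37.3 to 84.2 CPM in vehicle and 196 to 272 CPM after LPS, without overlap. Of the 4 endothelial markers tested, Pecam1 (2.60 to 52.3 CPM), Cdh5 (0.95 to 7.50 CPM) and Flt1 (48.6 to 165 CPM) rose, while Cldn5 and Emcn had no count in any library. Of 10 fibroblast and mural markers, 3 were tested and Dcn rose, from 0.14 to 8.90 CPM. Dcn had 7, 3, 5 and 1 counts in vehicle and passed the filter only through the LPS group, so it had to differ to be tested. The summed levels of the 10 were 3.76 to 7.56 CPM in vehicle and 7.63 to 25.0 CPM after LPS. Of the oligodendrocyte lineage and neuron markers, 4 and 5 of 10 fell and none rose. In each of these lists 7 were tested, of which 2 and 3 had at least 10 counts in every library. Whether RNA of other cells had a part in the changes below was not tested. In bulk RNA, fewer cells of a type and less RNA per cell cannot be told apart. The libraries numbered 3 stood apart for the GTPases in both groups, as given below, so changes are also given without both.

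The mRNA of every member that passed the low count filter was higher after LPS: 9 of 9 rose, where 30.3% of 13847 tested genes did and 64.1% were called in either direction (edgeR quasi-likelihood test, two-sided, Benjamini-Hochberg adjusted p under 0.05 over all tested genes). The changes ran from 3.23-fold for Irgm1 to 49.3-fold for Gbp5, and the median log2 change of the members was 3.44, against -0.11 for all tested genes. The 9 had at least 10 counts in every library, so none passed the low count filter through the LPS group alone. All 10 members, the untested Tgtp1 included, had every LPS library above every vehicle library, which held for 28.7% of tested genes. Among the 13847 changes ordered from the top, the members stood between rank 188 (Gbp5) and rank 1206 (Irgm1).

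**Figure D1:**
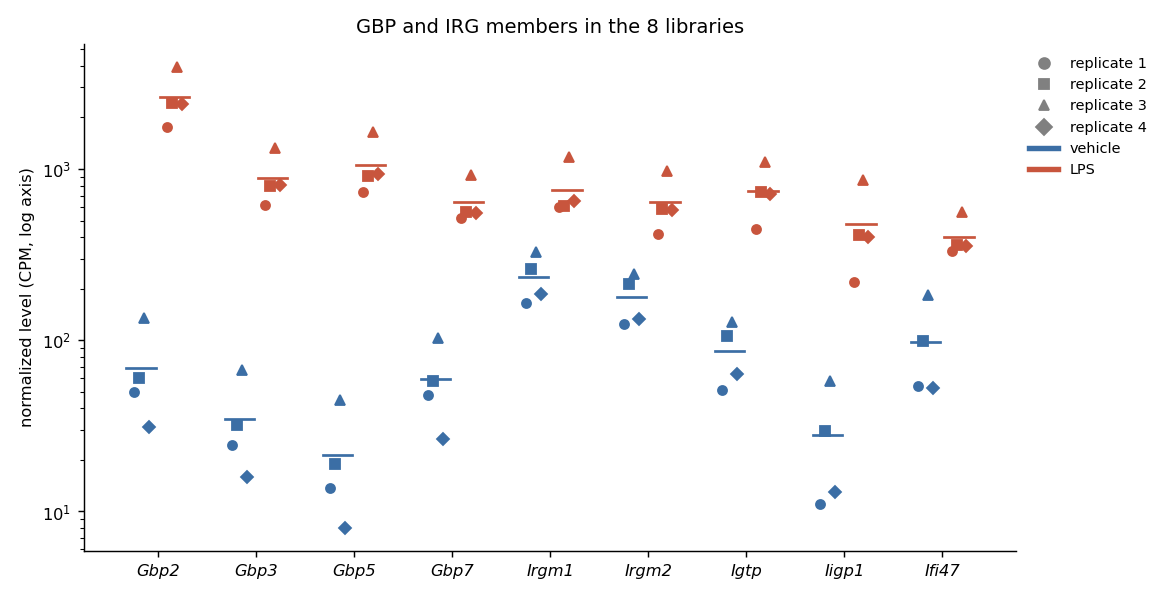
Level of the 9 tested members in each library, in CPM on a log axis, with vehicle in blue, LPS in red, the symbol giving the replicate number and the bar the mean of 4 libraries. No LPS library of any gene falls as low as a vehicle library of that gene, and replicate 3 (triangles) is the highest in both groups for all 9.

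Gbp5, Gbp2 and Gbp3, of the cluster on chromosome 3, showed the largest rises. Gbp2, a prenylated GBP that is recruited to vacuoles and to bacteria, measured 49.6, 60.3, 135 and 31.4 CPM in vehicle replicates 1 to 4 and 1764, 2419, 3939 and 2396 CPM in the LPS replicates. Replicate 3 was the highest of both groups, and the lowest LPS library was more than 10 times the highest vehicle library. Its log2 change was 5.25 (SE 0.50, 95% interval 4.13 to 6.38, edgeR adjusted p = 1.61e-05), and 5.62 without both libraries numbered 3 or 5.85 without vehicle replicate 3 alone.

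Gbp5, a prenylated GBP linked to activation of the NLRP3 inflammasome, measured 13.7, 19.1, 44.9 and 8.02 CPM in vehicle and 732, 914.5, 1649 and 934.7 CPM after LPS. All 4 LPS libraries lay far above the vehicle libraries, and the log2 change was the largest of the members, 5.62 (SE 0.57, 95% interval 4.34 to 6.91, edgeR adjusted p = 2.42e-05). Without both libraries numbered 3 the log2 change was 6.06, and without vehicle replicate 3 alone 6.33. Gbp3, whose gene lies between Gbp7 and Gbp2, measured 24.5, 31.8, 67.0 and 16.0 CPM in vehicle and 617, 799, 1331 and 809 CPM after LPS. The groups were far apart here too, at a log2 change of 4.67 (SE 0.47, edgeR adjusted p = 2.33e-05), and 5.02 without both libraries numbered 3.

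Gbp7, which has been tied to the oxidative killing of microbes in macrophages, had the smallest log2 change of the 4 GBPs. It measured 48.2, 58.0, 103.5 and 26.6 CPM in vehicle and 518, 565, 928.5 and 552.5 CPM after LPS. LPS replicates 1, 2 and 4 lay close together, and replicate 3 stood well above them. The log2 change was 3.44 (SE 0.40, 95% interval 2.54 to 4.34, edgeR adjusted p = 5.45e-05), and 3.70 without both libraries numbered 3. Exons of Gm43802, on the same strand, cover 11.3% of the exon bases of Gbp7, and how reads there were assigned is not given in the sources used here.

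Of the IRG regulators, Irgm1 and Irgm2 had the smallest changes of all tested members and Igtp a larger one. Irgm1 measured 165, 259.5, 329 and 185 CPM in vehicle and 599, 611, 1174 and 646 CPM after LPS. Its log2 change was 1.69 (SE 0.29, 95% interval 1.04 to 2.34, edgeR adjusted p = 0.00063), with 1.69 also without both libraries numbered 3. Irgm2 measured 124, 212.5, 244 and 134 CPM in vehicle and 419, 581, 977 and 579 CPM after LPS, a log2 change of 1.84 (SE 0.30, edgeR adjusted p = 0.00051), and 1.83 without both libraries numbered 3. For both genes the highest vehicle library stayed below the lowest LPS library, by less than for any GBP member. Igtp measured 51.0, 106, 127 and 63.3 CPM in vehicle and 448, 731, 1096 and 710.4 CPM after LPS. Replicate 1 was the lowest of both groups, replicate 3 the highest, and the groups did not overlap. The log2 change was 3.10 (SE 0.36, 95% interval 2.29 to 3.91, edgeR adjusted p = 5.26e-05), and 3.18 without both libraries numbered 3. Exons of Irgm2 cover 8.01% of the exon bases of Igtp on the same strand, and 11.8% of the 50-base windows of Igtp transcripts occur in Irgm2 too, so reads there cannot be assigned to 1 of the pair.

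The IRG effectors ranged from a moderate to a large rise. Iigp1 (chr18:60376027-60392634, plus strand), the effector best known for coating parasite vacuoles, measured 11.03, 29.3, 58.2 and 13.1 CPM in vehicle and 219, 414, 866 and 400.5 CPM after LPS. Among the 9 tested members it had the largest SD relative to its mean in both groups, with an SD of 275 around a mean of 475 CPM after LPS (n = 4), yet the groups did not overlap. Its log2 change was 4.09 (SE 0.62, 95% interval 2.69 to 5.49, edgeR adjusted p = 0.00031), and 4.35 without both libraries numbered 3. Leaving out vehicle replicate 3 alone gave 4.78, and LPS replicate 3 alone 3.63. Ifi47 measured 54.1, 99.3, 183 and 52.3 CPM in vehicle and 333, 361.5, 562 and 357 CPM after LPS. Vehicle replicate 3 came nearest to the LPS group, and the log2 change was 2.05 (SE 0.40, 95% interval 1.16 to 2.94, edgeR adjusted p = 0.0014), and 2.44 without both libraries numbered 3. Olfr56 on the same strand and Gm12188 on the opposite strand share 4.49% and 4.29% of the exon bases of Ifi47.

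Tgtp1 fell below the low count filter and was not tested in the comparison above. It had 1, 2, 4 and 0 counts in the vehicle libraries and 8, 26, 84 and 20 after LPS, in sum 7 against 138, so that every LPS library was above every vehicle library. Scaled to the libraries, the ratio of the sums was 30.8 (95% interval 14.6 to 78.1, covering counting error only). It was called higher in the 7 alternative fits that kept it (DESeq2, no filter, without 1 of the 4 vehicle libraries, and without LPS replicate 1), with adjusted p from 8.3e-08 to 0.0032. In the fits without 1 library it passed the low count filter only through the LPS group, so there it had to differ to be tested. The counts of Tgtp1 may understate the gene, as the authors kept only uniquely aligned reads. Of the 50-base windows of its transcripts, 81.2% occur in another gene too (79.4% in Tgtp2). For the other 9 members at most 12.7% of the windows are shared (Gbp7). Tgtp2, its near-identical neighbour, measured 0.56, 2.39, 7.80 and 0.82 CPM in vehicle and 38.5, 68.2, 141 and 63.2 CPM after LPS. Its log2 change was 4.73 (SE 0.77, edgeR adjusted p = 0.00046), and 86.6% of its windows are shared, so the values of both genes are uncertain.

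Divided by length, the order of the members changed with LPS. Levels per kilobase are CPM divided by the kilobases of all annotated exons of a gene, with the SD over 4 libraries. In vehicle, the IRGs led, with Irgm2 at 48.4 ± 16.0, Igtp at 43.0 ± 17.7, Irgm1 at 40.4 ± 12.9 and Ifi47 at 39.3 ± 24.7 CPM per kb. Gbp2 (27.4 ± 18.1), Gbp3 (10.7 ± 6.9), Gbp7 (10.5 ± 5.8), Iigp1 (4.8 ± 3.7) and Gbp5 (3.2 ± 2.5) followed. Each of these neighbours overlapped with the next in its library values. Within each of the 4 libraries Irgm2 stood above Igtp, Ifi47 above Gbp2, Gbp2 above Gbp3 and Gbp7 above Iigp1. Irgm1 stood above Ifi47 and Iigp1 above Gbp5 in 3 of 4, and the orders of Igtp and Irgm1 and of Gbp3 and Gbp7 were not resolved, with 2 of 4 each. Tgtp1, with 0 to 4 counts, lay apart below Gbp5.

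After LPS, Gbp2 led at 1045 ± 367 CPM per kb, and its lowest library (701) was above the highest library of the next gene, Igtp (542). Igtp reached 369 ± 132, Gbp3 272 ± 94.1, Irgm2 173 ± 64.5, Ifi47 163 ± 43.0, Gbp5 159 ± 61.0, Irgm1 130.4 ± 48.0, Gbp7 114 ± 34.3 and Iigp1 81.6 ± 47.3 CPM per kb. From Igtp to Iigp1 each gene overlapped with the next between libraries, although in every library Igtp stood above Gbp3, Gbp3 above Irgm2, Gbp5 above Irgm1, Irgm1 above Gbp7 and Gbp7 above Iigp1. Gbp2 lay 12.8-fold above Iigp1, and with the length of the longest transcript the largest gap was 9.15-fold, between Gbp2 and Gbp7. Order in the middle depends on the length chosen: Gbp5 stood at place 6 with all exons and at place 4 with its longest transcript. In vehicle the order of the leading genes depends on it too. With the longest transcript it was Irgm1 (61.2), Ifi47 (54.8), Irgm2 (50.65) and Igtp (43.0 CPM per kb).

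**Figure D2:**
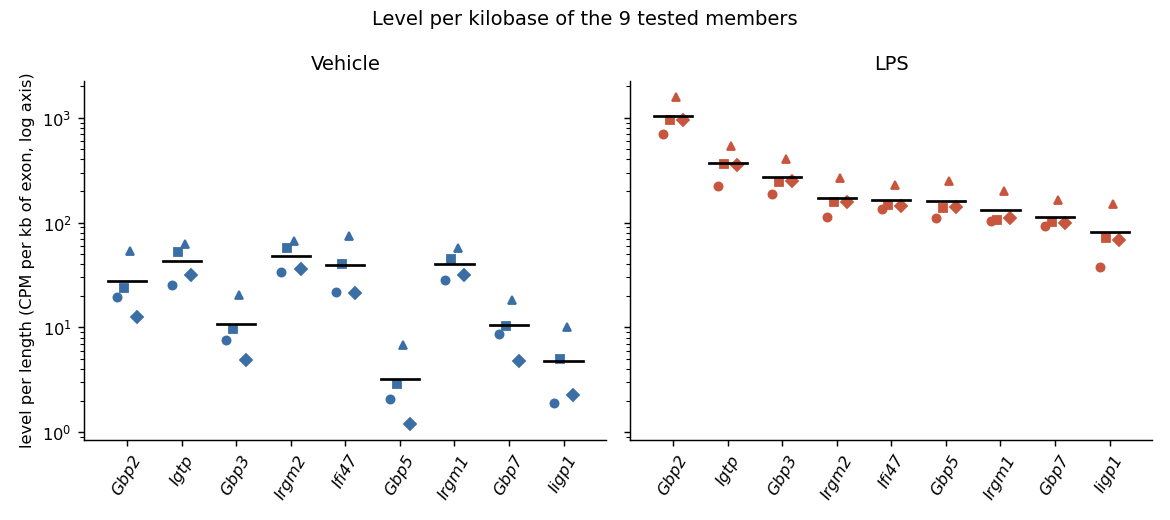
Level of the 9 tested members per kilobase of annotated exon, in CPM per kb on a shared log axis, in vehicle (left) and after LPS (right), ordered by the LPS mean, with 1 point a library (circle, square, triangle and diamond for replicates 1 to 4) and a bar at the mean. Gbp2 has place 5 in vehicle and leads after LPS, and Gbp5 moves from the lowest place to among the middle ones.

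As shares of the summed level per kilobase, which rose from 228 ± 105 to 2509 ± 886 CPM per kb over the 10 members, the mixture shifted toward Gbp2, Gbp3 and Gbp5. Gbp2 made up 11.5% ± 2.84 in vehicle and 41.7% ± 0.40 after LPS (SD, n = 4). Gbp3 went from 4.47% ± 1.01 to 10.9% ± 0.17 and Gbp5 from 1.30% ± 0.42 to 6.32% ± 0.26. In the other direction, the share of Irgm1 went from 18.6% ± 2.68 to 5.23% ± 0.63, that of Irgm2 from 22.2% ± 2.97 to 6.87% ± 0.15 and that of Ifi47 from 16.4% ± 2.58 to 6.67% ± 0.84. Gbp7 kept a like share (4.55% ± 1.08 and 4.63% ± 0.53), and Igtp held 19.2% ± 2.52 and 14.7% ± 1.27. For Gbp2, Gbp3, Gbp5, Irgm1, Irgm2, Igtp and Ifi47 the shares of the groups did not overlap. These shares do not depend on the scaling between libraries, and the SD of a share after LPS was small even where the level itself varied.

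A measure without length restates the changes in log2 CPM relative to their mean, so it is not a separate observation. Each member was set against the mean log2 CPM of the 9 tested members in its own library, so that the library scaling cancels. LPS moved Gbp5 up by 2.20, Gbp2 by 1.76, Gbp3 by 1.18 and Iigp1 by 0.60 relative to that mean. Gbp7 moved by -0.07 and Igtp by -0.51, while Ifi47 moved by -1.42, Irgm2 by -1.80 and Irgm1 by -1.95. Between Gbp5 and Irgm1 the log2 changes differed by 3.93, and by 4.38 without both libraries numbered 3. These differences are descriptions and were given no test.

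The replicate number went with the level of the GTPases in both groups. Replicate 3 was the highest for 9 of 9 tested members in vehicle and again for 9 of 9 after LPS. On the log2 scale, vehicle replicate 3 stood above the other vehicle libraries by 0.68 (Irgm2) to 1.84 (Iigp1), with a median of 1.48, and LPS replicate 3 above the other LPS libraries by 0.68 (Ifi47) to 1.39 (Iigp1), with a median of 0.86. For all tested genes the medians were 0.00 and 0.07. LPS replicate 1 was the lowest for all 9, and the lowest vehicle library was replicate 4 for 5 members and replicate 1 for 4. Vehicle replicate 3 also had the lowest summed astrocyte markers (21.1 CPM, against at least 43.6 in the other vehicle libraries) and the highest summed microglia markers (12520 CPM). LPS replicate 3 had 45.9 CPM of astrocyte markers, near the lowest of its group (44.4), and the lowest summed microglia markers (2269 CPM, against at least 2383). Summed markers of neurons (14.8 and 5.27 CPM) and of the oligodendrocyte lineage (97.5 and 23.2 CPM) were the lowest of their group in vehicle and LPS replicate 3. The part of these cells in the result was not tested.

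**Figure D3:**
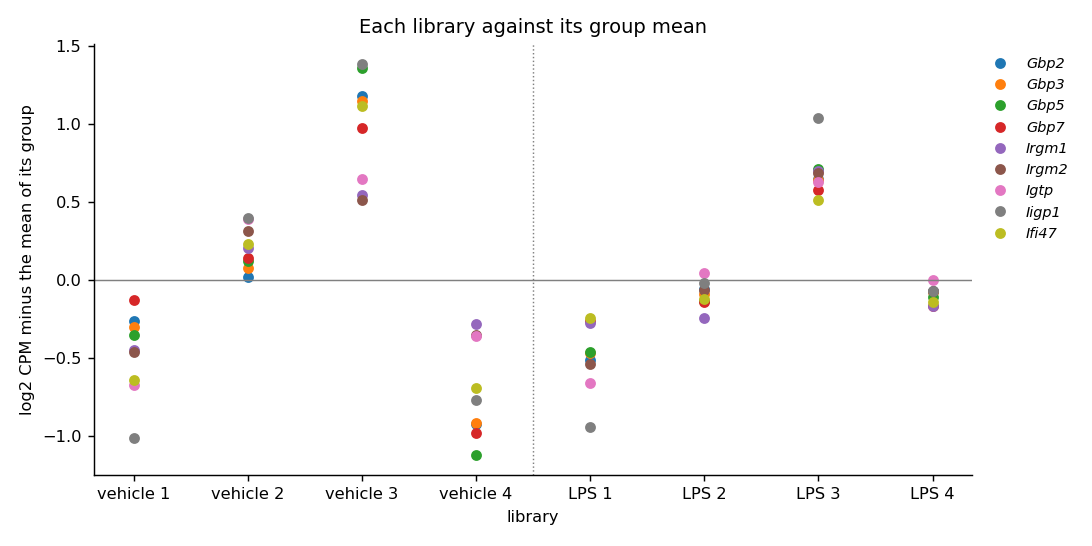
Deviation of each tested member from the mean of its group (log2 CPM), by library, with a dotted line between vehicle and LPS. The 9 members shift together in each library, up in replicate 3 of both groups and down in LPS replicate 1.

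Taking the replicates as pairs, LPS minus vehicle on the log2 scale was positive in 4 of 4 pairs for all 9 members. It ran from 5.20 to 6.85 for Gbp5, from 4.87 to 6.25 for Gbp2, from 4.31 to 5.65 for Gbp3 and from 3.82 to 4.93 for Iigp1. For Gbp7 it was 3.16 to 4.37, for Igtp 2.78 to 3.49, for Ifi47 1.62 to 2.77, for Irgm2 1.45 to 2.11 and for Irgm1 1.24 to 1.86. The pair numbered 4 gave the largest value for 8 of the 9, Irgm1 being the exception.

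Among the 8010 tested genes whose log2 CPM averaged 3 or more, those whose library-to-library deviations from the group means were most like the mean deviation of the 9 members were Cd69 (Pearson r = 0.995), Cxcl10 (0.993), Trim30c (0.992), Ankle2 (0.991) and Samhd1 (0.987), over 8 libraries. The Spearman correlation was 0.952 to 0.976, and without the pair of libraries farthest from the median, both numbered 3, r was 0.96 to 0.991. The libraries share culture conditions and, by number, perhaps the culture. The median r of all 8010 genes was 0.202, and 57 genes reached 0.95. Cd69 (an early activation antigen), Cxcl10 (a chemokine) and Samhd1 (a nuclease that limits viruses) are known interferon-induced genes. Cxcl10 rose by a log2 value of 5.21, Cd69 by 4.97, Trim30c by 3.70, Samhd1 by 1.69 and Ankle2 by 0.36 (edgeR adjusted p from 2.4e-05 to 0.047). The members themselves had r of 0.922 (Igtp) to 0.981 (Gbp3) with the mean they form.

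Most other genes of both families that passed the low count filter also rose, where 30.3% of all tested genes did. Of 7 further GBP genes, 5 were tested and 4 rose: Gbp4 (log2 change 6.26, SE 0.70), Gbp6 (5.00, SE 0.55), Gbp11 (3.75, SE 1.08) and Gbp9 (2.25, SE 0.31), with edgeR adjusted p from 3.98e-05 to 0.012. Gbp4 went from 2.84 to 14.5 CPM in vehicle to 221 to 906 CPM after LPS, a larger change than that of any member. Gbp11 passed the filter only through the LPS group, with 12, 1, 7 and 0 counts in vehicle and 13, 12, 150 and 16 after LPS, so it had to differ to be tested. In all 8 libraries the other 3 that rose reached 10 counts or more. Gbp8 measured 0.26 (95% interval -1.81 to 2.33, edgeR adjusted p = 0.82) with overlapping groups, and its sign turned in 5 of the alternative fits. Of the Gbp6 windows 70.7% occur in other genes too (65% in Gm43302), so its reads are uncertain.

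Of 12 further IRG genes, 9 were tested and 9 rose, where 30.3% of all tested genes did. Tgtp2 (4.73), Gm4951 (2.82), Gm12185 (2.45), F830016B08Rik (1.79) and Gm12250 (1.68) led on the log2 scale, and Gm5431 (1.20), 9930111J21Rik2 (1.04), 9930111J21Rik1 (0.85) and Irgq (0.62) changed less. The last 4 no longer passed when libraries were scaled by their totals alone, where Irgq turned to -0.08. Over both families, 13 of 14 further genes rose, Gbp11 included, and 12 of 12 among those that reached 10 counts in all 8 libraries. The genes below the filter had few counts: summed over 4 libraries, Gbp10 had 3 in vehicle and 102 after LPS, Gbp2b 4 and 40, Gm4841 19 and 149, Gm12187 0 and 9, and Irgc1, known from testis, 4 and 2. Of the larger GTPases that interferon also induces, Mx1 (3.74) and Mx2 (3.38), which block viruses, and Gvin1 (1.93) rose, 3 of 3.

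**Figure D4:**
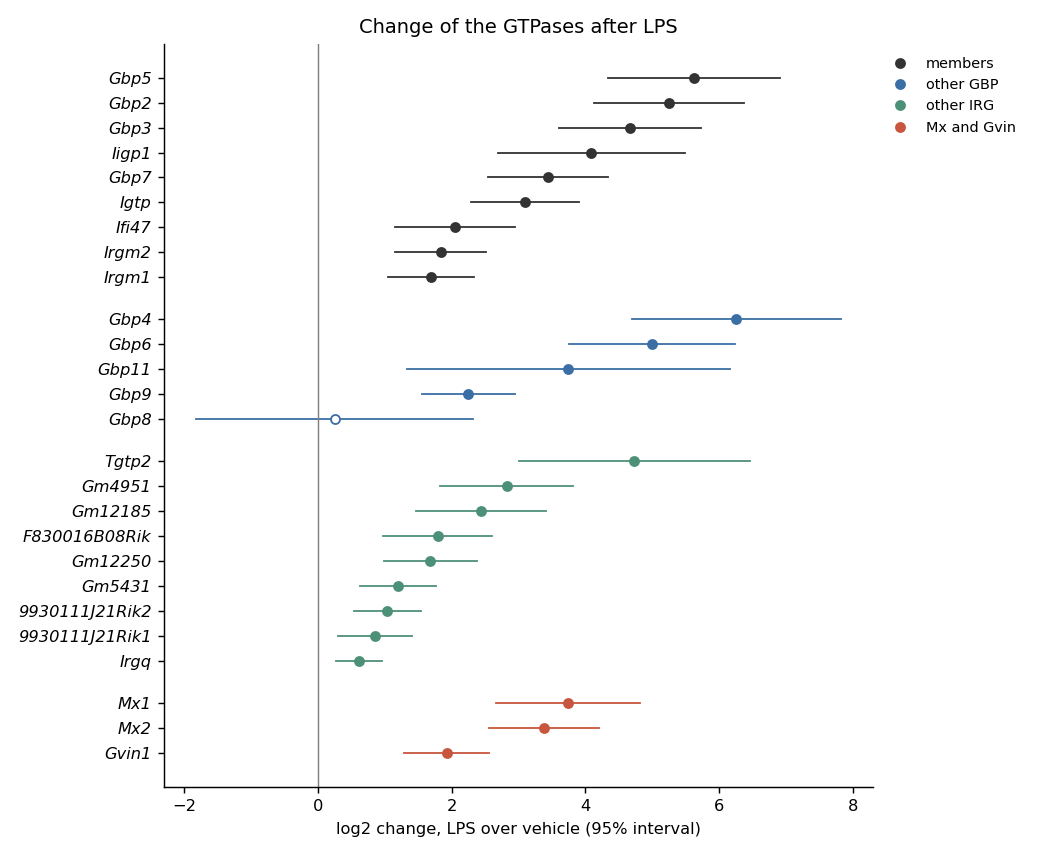
Log2 change after LPS with its 95% interval for the 9 tested members and for the 17 tested relatives, grouped by family, with filled points for adjusted p under 0.05. Gbp4 and Gbp5 lie farthest to the right, and Gbp8 is the open point whose interval crosses 0.

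Genes within 200 kb of a member that are outside the GTPase lists gave a mixed picture: of 25 tested, 12 rose and 4 fell, where 30.3% and 33.8% of all tested genes did. The largest fitted rise was that of BC023105, a processed pseudogene near Iigp1, which had 0, 3, 7 and 1 counts in vehicle and 71, 255, 482 and 263 after LPS. It passed the filter through the LPS group, so the size of its rise is poorly measured, and as 6.15% of the 50-base windows of the IRG gene Gm4841 occur in it, it may not be separate from the family. Olfr1396, with 0, 9, 7 and 0 counts in vehicle and 11, 18, 40 and 14 after LPS, also passed only through the LPS group. Both are counted among the 12, although they had to differ to be tested. The largest fall was that of Zfp692 near Irgm2, from 3.55 ± 1.20 to 1.12 ± 0.46 CPM (log2 change -1.67, SE 0.38). Within 100 kb, 4 of 13 rose and 4 fell. Olfr56 (1.47 ± 0.97 to 80.1 ± 34.4 CPM) shares 4.49% of the exon bases of Ifi47. Its log2 change was 5.75, against 2.05 for Ifi47, and whether its rise is separate from that of the member was not tested. Olfr56 is named after its values were seen.

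Interferon receptor RNA was present, while RNA of the listed interferon genes was absent or below the low count filter. Of the interferon genes on the list, Ifng had 0 counts in all 8 libraries, which allows at most 3 counts in each, and Ifnb1 had 2 to 7 counts in vehicle and 0 to 15 after LPS, below the low count filter. In both fits that kept Ifnb1 it was not called (log2 change 0.99, DESeq2 adjusted p = 0.38, and 0.91, edgeR adjusted p = 0.37 with no filter). All 4 receptor chains were expressed: Ifngr1, the ligand-binding chain for interferon gamma, fell from 216 ± 14.1 to 76.3 ± 10.2 CPM (log2 change -1.50, SE 0.12, edgeR adjusted p = 4.9e-06). Ifngr2 (0.70), Ifnar2 (0.72) and Ifnar1 (0.35) rose, but these 3 did not hold under scaling by library totals alone, which left 2 of 4 called, both lower. At 1 time point, whether interferons had been made earlier was not measured.

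Of 10 JAK-STAT and IRF genes, 8 rose and none fell, where 30.3% of all tested genes rose and 33.8% fell. The feedback inhibitor Socs1 (3.79), Irf7 (3.54), the amplifier of type I interferon genes, and the kinase Jak2 (3.52) changed most on the log2 scale. Among factors that bind the motifs above, Stat2 rose by 1.99, Irf1 by 1.44 and Irf9 by 1.19. Irf8 (0.43, edgeR adjusted p = 0.059) and Irf3 (0.09, edgeR adjusted p = 0.64) did not pass, and both passed as higher without the libraries numbered 3, at 0.70 and 0.33. The sign of Irf3 turned with upper quartile scaling (-0.05) and without LPS replicate 4 (-0.01). Under library totals alone Irf3 was called lower (-0.57, edgeR adjusted p = 0.028), and Irf8 turned to -0.23. Jak1 (0.89) and Tyk2 (0.36) did not pass as higher under library totals alone, where Tyk2 was called lower, at -0.31. Tyk2 also lost its call with upper quartile scaling (0.21) and with no filter on low counts (0.33).

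Of 8 inflammasome genes to which GBPs have been linked, 7 rose, where 30.3% of all tested genes did. They were, with their log2 changes, Il1b (6.38), Casp4 (2.81), the caspase that senses cytosolic LPS, Nlrp3 (2.63), Il18 (2.59), Casp1 (2.38), Aim2 (1.17) and Gsdmd (1.11). Pycard, which encodes the adaptor ASC, fell from 41.1 ± 5.34 to 13.8 ± 2.77 CPM (log2 change -1.57, SE 0.16, edgeR adjusted p = 2.44e-05). Casp4 after LPS measured 203, 251, 444 and 261 CPM, and Casp1 294, 415, 743 and 407 CPM, with replicate 3 the highest of each. Il1b was highest in replicate 3 too, but its replicate 1 came next, with 4671, 2103, 5003 and 1926 CPM. For Nlrp3 (430 CPM) and Gsdmd (170 CPM), replicate 3 was the lowest LPS library.

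Genes tied to the loading of the GTPases onto vacuoles were called in both directions, as were genes at large (30.3% of all tested genes higher and 33.8% lower). Of 10 ATG conjugation and ATG8 genes, 5 rose and 4 fell, with a median log2 change of 0.05, against -0.11 for all tested genes. The largest changes were those of Atg12, which rose by 1.03, and Map1lc3a, which fell by 0.91 on the log2 scale. Of 6 ubiquitin and cargo receptor genes, 4 rose, led by the ubiquitin ligase Trim21 (2.09), and Calcoco1 fell (-1.84). Gbp2 and Gbp5 are anchored by a lipid attached by prenylation. Of 5 genes for the transferases and the enzymes that act after them, Rce1, a protease that trims the tail once the lipid is attached, rose by 0.31 and Fntb, a farnesyltransferase subunit, fell (-0.71). The other 3, named here as the rest of the list, were not called: Fnta (0.13), Pggt1b (0.20) and Icmt (0.18). Which transferase acts on Gbp2 and Gbp5 was not examined. The calls of Rce1, Atg5, Atg16l1 and the receptor gene Ifnar1 were lost under several alternatives, upper quartile scaling among them, for which reason Atg5 and Atg16l1 are named here. With the replicate number as a block, Rce1 (edgeR adjusted p = 0.053) and Atg16l1 (edgeR adjusted p = 0.078) did not pass.

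**Figure D5:**
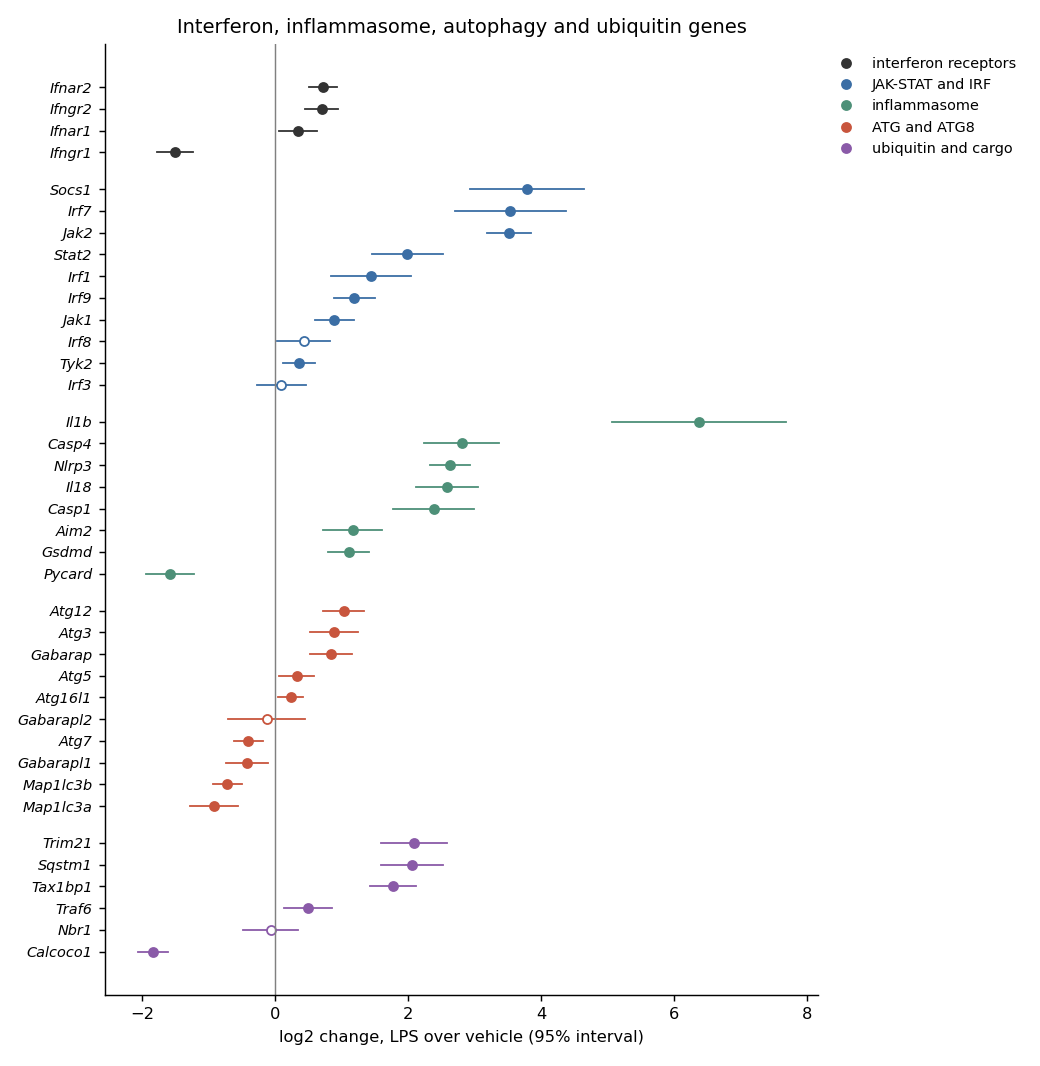
Log2 change after LPS with its 95% interval for tested interferon receptor, JAK-STAT and IRF (10 genes), inflammasome, ATG and ubiquitin genes, with filled points for adjusted p under 0.05. Ifngr1, Pycard and Calcoco1 lie left of -1, and Il1b, Socs1, Irf7 and Jak2 lie farthest right.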

How the data were processed

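RNA of 8 mouse microglia libraries (4 vehicle, 4 LPS) was sequenced in single-end reads of 50 bases. The authors aligned reads with GSNAP to GRCm38 (per the labels and the study's methods), kept uniquely aligned reads and deposited raw counts per Ensembl gene, without normalization. The labels and the methods name different kits and sequencers, and whether counting used strand is not given in the sources used here. All 8 columns were mapped to a sample by its label, and 52489 of 52636 identifiers had a symbol in GENCODE vM21.

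Counts were tested with edgeR 4.0.16 (R 4.3.3, TMM, filterByExpr keeping genes by a count limit of 10 and a total of 15, quasi-likelihood F test, two-sided, Benjamini-Hochberg over 13847 genes, threshold 0.05), with no covariate, which was tested on simulated data. Library totals of 20071921 to 30604447 counts set the precision, and intervals of summed counts cover counting error only. DESeq2 1.42.0 was an alternative. The other alternatives were no filter, a filter of 10 counts in every library, upper quartile scaling, library totals alone, DESeq2 size factors, a stricter threshold of 0.01, a minimum log2 change of 1, leaving out each library or both libraries numbered 3, and a replicate block. Other lengths, distances and level limits served the descriptions. Scaling by totals, leaving out both libraries numbered 3, the length by unshared windows and the joined motif were chosen after seeing the data.

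The labels give replicate numbers without saying what they share. The correlation of same-numbered libraries, each as its deviation from its group mean, was 0.373, 0.196, 0.171 and 0.108 over 8010 genes, and the exchanged pairs of replicates 2 and 4 gave 0.146 and 0.137. As all 4 same-numbered values exceed 0.1, the numbers were treated as pairs in the differences by pair and in the replicate block. The main fit, which gave the log2 changes and p-values unless another fit is named, was unpaired. As replicate 4 gave less than these exchanged pairs, the limit of 0.1 does not establish pairing. No label says that libraries of a group come from separate animals, so p-values measure the spread between these libraries, and no batch is labelled. The members and lists were chosen with earlier results of these data known. All members were named, every gene of the family, interferon, JAK-STAT, IRF and inflammasome lists could be named, and of the remaining lists and of the neighbours within 200 kb the called genes with the largest change in each direction. The 5 genes most like the members were also named, and 1 JAK-STAT gene and 1 further list are not reported here. Sequences are from RefSeq tables on GRCm38, where 9 of 10 members matched, and matching was done in Python 3.11.15 with pandas 2.3.3. Figures were drawn with matplotlib 3.10.9.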

Additional observations from a re-analysis of the deposited data

Results flagged for a closer look

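In groups of 4 libraries, 17 of the 143 groups checked held a library far from the others. Its gap to the nearest, over the range, exceeded Dixon's 95% critical value, which chance gives in about 1 in 20 independent groups. These groups share libraries and are not independent. LPS replicate 3 was the far library in 8 of the 17. Among the members it stood out for Gbp7 (928.5 CPM, the others 518 to 565), Irgm1 (1174 CPM, the others 599 to 646) and Ifi47 (562 CPM, the others 333 to 361.5). Among relatives, LPS replicate 3 stood out for Gbp8 (6.81 CPM, the others at most 0.93) and Gbp11 (6.996 CPM, the others at most 0.87), vehicle replicate 3 for Gbp4 (14.5 CPM, the others at most 4.67) and LPS replicate 2 for Gbp2b (0.76 CPM, the others at most 0.48).

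Among the pathway genes, LPS replicate 3 was high for Traf6 (77.2 CPM), Tax1bp1 (629.6 CPM) and Fnta (60.2 CPM). Vehicle replicate 3 was high for Socs1 (3.17 CPM) and Pycard (49.1 CPM). Vehicle replicate 1 was high for Il1b (82.3 CPM) and Tax1bp1 (145 CPM, the others 135.7 to 136.8). Vehicle replicate 4 was low for Jak2 (57.5 CPM), LPS replicate 1 high for Nlrp3 (604 CPM) and LPS replicate 2 high for Calcoco1 (14.7 CPM, the others 13.36 to 13.52). The rule also flags a small gap where the other libraries lie close together.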

How the results depend on the processing

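All 9 tested members kept their direction and their call under all 16 alternatives run for each of them, the replicate block included, which gave log2 changes of 5.39 for Gbp2 and 1.68 for Irgm1. The lowest values came from scaling by library totals alone, which shifted all genes by -0.68 (log2), took the calls to 1988 higher and 8457 lower (from 4191 and 4686) and left Irgm1 at 0.99, Irgm2 at 1.14, Ifi47 at 1.37 and Gbp5 at 4.94. Upper quartile scaling shifted all genes by -0.16, with 39.6% of calls higher in place of 47.2%. Leaving out 1 library gave 4.99 to 5.85 for Gbp2, 5.33 to 6.33 for Gbp5, 3.63 to 4.78 for Iigp1 and 1.40 to 1.95 for Irgm1, and the highest value of Gbp2, Gbp5 and Iigp1, over 1.5 times in fold above the reported one, was that without vehicle replicate 3. The number of genes called moved in small lists: the receptor list had 2 under library totals alone and 1 with a log2 change of at least 1 (from 4), where the ATG list had 1 (from 9). Prenylation enzymes had 2 called, 1 with no filter, with 10 counts in every library, with upper quartile scaling, with the replicate block and with an adjusted p under 0.01, 5 under library totals alone, 0 with a log2 change of at least 1, and 1 to 2 when 1 library was left out. The gap in level per kilobase was 9.15 with the longest transcript, and 4 genes rose within 100 kb. The cause of these moves was not tested. The replicate block ended the calls of Atg16l1 and Rce1 and changed no other call of a member or listed gene. Depth limits Tgtp1, Gbp2b, Gbp10, Gm12187, Gm4841, Irgc1, Ifnb1 and Ifng. Read sharing limits Tgtp1, Tgtp2, Gbp6, Gbp10, 9930111J21Rik1, 9930111J21Rik2 and Gm5431.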
